A study of Mus musculus with 8 samples.

Results

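The genes described are 10 members of the signalling chain around interferon regulatory factor 7 (IRF7), chosen by name: the adaptors and kinases that activate IRF3 and IRF7 (Mavs, Traf3, Traf6, Tank, Tbk1, Ikbke) and the type I interferon receptor with its kinases (Ifnar1, Ifnar2, Jak1, Tyk2). All 10 were found among the 22274 genes of the deposited table, and all 10 passed the filter on low counts. Primary murine cardiac fibroblasts, the matrix-producing cells of the heart, were cultured, given virus, and treated with TGF-β at 5 ng/ml for 24 h. TGF-β is a cytokine that turns fibroblasts into contractile myofibroblasts, and every library was treated with it. RNA-seq was performed on 4 libraries labelled GFP, which received the empty vector, and 4 labelled OEIRF7, which received the vector for IRF7 overexpression. The study names an adenovirus with the human IRF7 gene under the CMV promoter, a promoter active in most cell types, while the deposited description names an adeno-associated virus. The labels give neither the age nor the strain of the mice, nor whether the libraries of a group came from separate cultures, so p-values measure the spread between these libraries, which may be technical.

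Cells sense viral nucleic acids through receptors that signal to mitochondrial (MAVS), endosomal (TRIF, MyD88) or endoplasmic reticulum (STING) adaptors. TRAF ubiquitin ligases then recruit the kinases TBK1 and IKKε (encoded by Ikbke), held by scaffolds such as TANK, which phosphorylate IRF3 and IRF7 and so switch on type I interferon genes. Secreted interferon binds IFNAR1 and IFNAR2, the receptor-bound kinases TYK2 and JAK1 phosphorylate STAT proteins, which form with IRF9 the factor that induces interferon-stimulated genes, Irf7 among them. Fibroblasts are known to carry this receptor and to respond to interferon.

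Total counts per library lay between 24454801 and 28658826, and 13533 genes were tested with edgeR's quasi-likelihood test. Endogenous Irf7, the targeted gene, had 2272 to 3680 counts in the libraries labelled GFP and 380 to 421 in those labelled OEIRF7, a log2 fold change of -2.96 (adjusted p = 7.72e-11, edgeR). Mouse Irf7 was thus lower under the overexpression label, and the level of a human transgene was not measured here, so higher and lower refer throughout to the labels. Fibroblast markers covered a wide range of levels. The highest was Col1a1, at 4561 ± 140 CPM (counts scaled to library size, SD, n = 4) under the label GFP and 4070 ± 187 under OEIRF7. The lowest was Lum, at 12.9 ± 2.73 and 10.1 ± 1.09 CPM. Tcf21, which the paper names as a label of quiescent cardiac fibroblasts, was at 58.3 ± 6.13 and 23.1 ± 3.49 CPM. Its log2 fold change of -1.33 was the largest of this list (adjusted p = 2.04e-08, edgeR). Postn, by whose protein the paper identifies activated fibroblasts, was lower too, at 2631 ± 93.2 CPM under the label GFP and 2018 ± 94.1 under OEIRF7. The log2 fold change of Postn was -0.38 (adjusted p = 2.84e-07, edgeR). Of 9 fibroblast markers, 1 was higher and 5 were lower in the libraries labelled OEIRF7, with a summed level of 13011 to 13730 CPM under the label GFP and 11465 to 12078 CPM under OEIRF7 (edgeR). Of 8 cardiomyocyte markers, 7 were too low to be tested. Of the 10 macrophage and leukocyte markers, 8 were tested, of which 5 were higher in the libraries labelled OEIRF7 and none lower (edgeR). Beside these marker counts, 29.0% of all genes tested were higher and 29.9% lower at an adjusted p under 0.05 (edgeR). The summed level of the 10 macrophage and leukocyte markers was 286 to 340 CPM under the label GFP and 373 to 410 CPM under OEIRF7. Itgam and Cd14 had log2 fold changes of 1.07 and 1.21, the pan-leukocyte gene Ptprc had -0.08 (adjusted p = 0.637, edgeR), and the T cell gene Cd3e had no count. The part of such cells, and of the fibroblast markers, in the differences described here was not tested. In these bulk libraries, fewer cells of a type and less RNA per cell cannot be told apart.

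Of the 10 genes, 5 were higher and 2 were lower in the libraries labelled OEIRF7, and 3 were not past the threshold (edgeR's quasi-likelihood test, adjusted p under 0.05 over all genes tested). Traf3, Tank, Ifnar1, Ifnar2 and Jak1 were higher, Ikbke and Traf6 were lower, and Mavs, Tbk1 and Tyk2 did not pass. Of all genes tested, 58.9% passed the same threshold, 29.0% as higher and 29.9% as lower, so a count of 7 in 10 is close to the share of the whole transcriptome. The changes were small, with log2 fold changes from -0.45 to 0.36 and a median of 0.07, against a median of 0.00 over all genes tested. At the thresholds of the study's methods, a fold change over 1.5 or under 0.66 with an unadjusted p under 0.05, none of the 10 genes passed, while 19.0% of all genes passed. With DESeq2 at these thresholds the count was also 0. No overlap between the groups was seen for 6 of the 10 genes, against 53.8% of all genes tested.

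**Figure D1:**
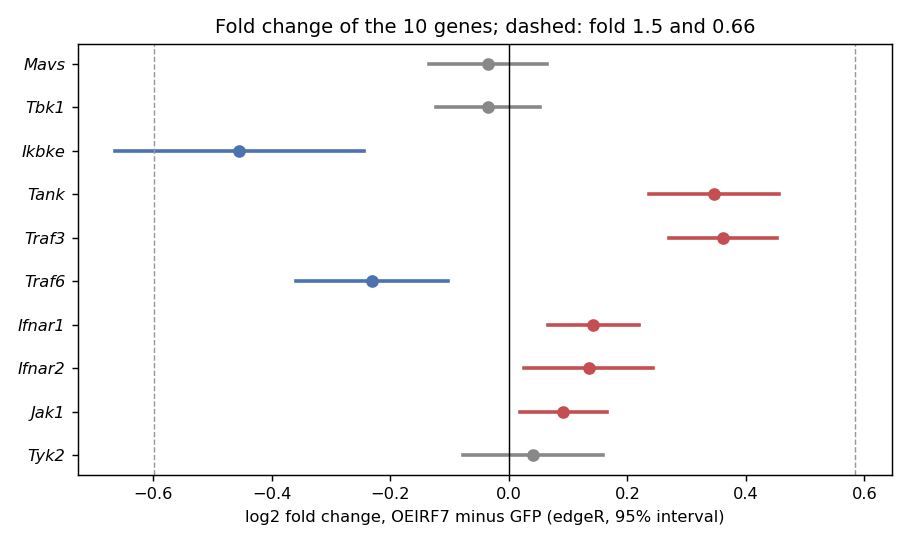
Log2 fold change (OEIRF7 minus GFP) of each of the 10 genes, with the 95% interval derived from the edgeR test, 4 libraries per group. Red marks genes that were higher and blue genes that were lower at an adjusted p under 0.05, grey the other 3, and the dashed lines mark fold changes of 1.5 and 0.66. All estimates lie between the dashed lines, with Ikbke lowest at -0.45 and Traf3 highest at 0.36.

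The 10 genes covered a wide range of levels. On the FPKM scale (fragments per kilobase of transcript, scaled to the depth of the library, which allows genes of different length to be compared), Jak1 stood first with 60.5 ± 1.75 FPKM (SD, n = 4) in the libraries labelled GFP and 66.2 ± 1.17 in those labelled OEIRF7. Ifnar2 was next with 30.8 ± 0.850 and 32.9 ± 2.24 FPKM. A middle group of 5 genes, namely Ifnar1, Tank, Tbk1, Traf3 and Mavs, lay between 14.5 and 19.2 FPKM on average under the label GFP. Within it Ifnar1 and Tank overlapped, as did Traf3 and Mavs, and the other neighbours were apart in every library. Tyk2 with 4.92 ± 0.242, Ikbke with 4.32 ± 0.336 and Traf6 with 4.27 ± 0.200 FPKM were the lowest, and the last pair did not differ beyond their spread.

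Under the label OEIRF7 the order of the middle group by FPKM was different. Tank, at 24.3 ± 1.74 FPKM, moved above Ifnar1 at 21.5 ± 0.897, although their ranges overlapped, and Traf3, at 18.9 ± 0.800, moved above Tbk1 at 16.3 ± 0.548, with no overlap. At the lower end Traf6 with 3.72 ± 0.216 and Ikbke with 3.33 ± 0.558 FPKM again overlapped. When CPM were divided by the exonic length in GENCODE instead, 3 of the 10 ranks under the label GFP and 6 under OEIRF7 were kept. On that scale neither reordering was seen. Tank was below Ifnar1 in both groups, at 8.29 against 13.6 CPM per kilobase under OEIRF7, and Traf3 was above Tbk1 in both, at 12.99 against 12.8 with overlapping ranges under GFP. Jak1 was first and Tyk2, Traf6 and Ikbke were the last 3 on both scales in both groups. Per exonic kilobase, however, Ikbke lay below Traf6 without overlap, at 1.57 against 3.38 under GFP and 1.14 against 2.88 under OEIRF7.

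**Figure D2:**
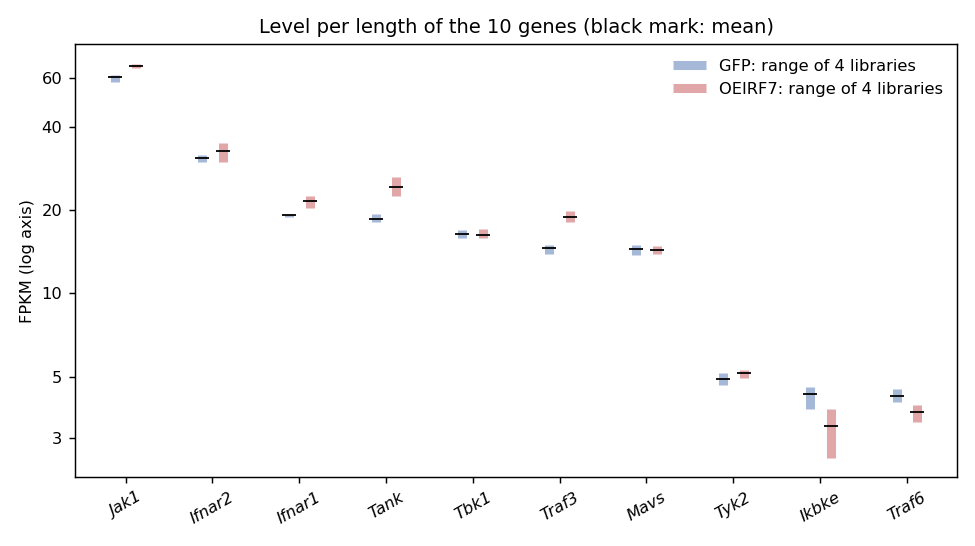
Level per length of the 10 genes in FPKM on a log axis, ordered by the mean under the label GFP. Each bar spans the 4 libraries of a group and the black mark is the mean. Jak1 lies near 60.5 FPKM at one end and Traf6 near 4.27 at the other, and Tank and Traf3 rise from 18.6 to 24.3 and from 14.7 to 18.9 FPKM.

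At the entry of the pathway stands Mavs, the mitochondrial adaptor of the RNA sensors RIG-I and MDA5 (ENSMUSG00000037523, chromosome 2 of GRCm38 from 131234063 to 131248025). Its level was 42.0, 40.5, 44.3 and 44.7 CPM in GFP libraries 1 to 4 and 39.97, 42.9, 41.5 and 43.0 CPM in OEIRF7 libraries 1 to 4. The groups overlapped, and the log2 fold change of -0.03 had a 95% interval from -0.13 to 0.065 (adjusted p = 0.542, edgeR).

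Traf3, a ubiquitin ligase that links MAVS and TRIF to TBK1 and at the same time restrains non-canonical NF-κB signalling, was higher (ENSMUSG00000021277, chromosome 12 from 111166370 to 111267153). It had 98.4, 89.3, 97.3 and 96.9 CPM in GFP libraries 1 to 4 and 122, 127, 126 and 115 CPM in OEIRF7 libraries 1 to 4. Every OEIRF7 library was above every GFP library, with a change of 0.36 ± 0.043 (log2, SE) and an adjusted p of 4.17e-06 in edgeR, or 1.28-fold. The exact two-sided permutation test gave p = 0.0286, the smallest that 4 against 4 libraries allow.

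Traf6, the ligase that couples MyD88-dependent receptors to the TAK1 and IKK kinases and to IRF7, was lower (ENSMUSG00000027164, chromosome 2 from 101678429 to 101701669). It had 28.3, 25.2, 26.0 and 26.9 CPM in GFP libraries 1 to 4 and 22.4, 20.96, 23.3 and 24.2 CPM in OEIRF7 libraries 1 to 4. The groups did not overlap, and the log2 difference reached -0.23 ± 0.060 (SE, edgeR adjusted p = 0.00407), or 0.853-fold. The exact two-sided permutation test again gave p = 0.0286. The 2 TRAF genes thus moved in opposite directions.

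**Figure D3:**
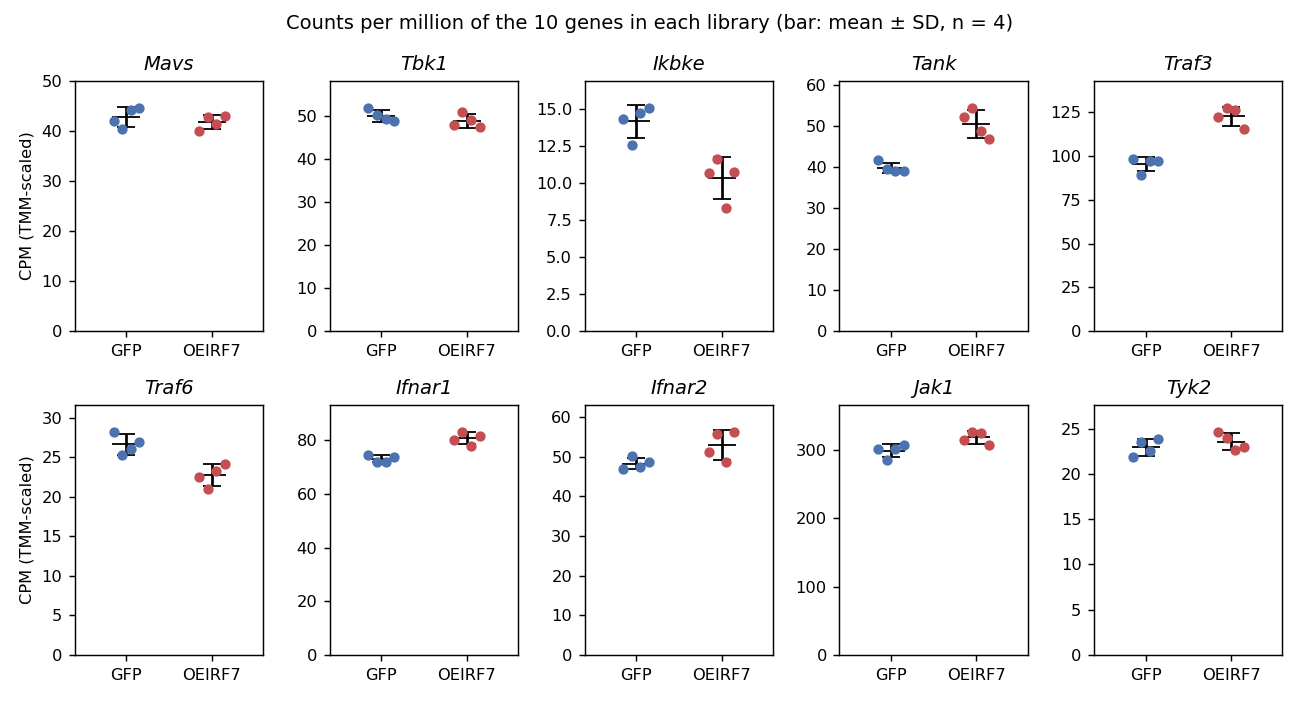
CPM of the 10 genes in each library, scaled by TMM, with the 4 libraries labelled GFP in blue and the 4 labelled OEIRF7 in red, and the mean ± SD in black. All axes start at 0. Tank, Traf3 and Ifnar1 are higher and Ikbke and Traf6 lower in every OEIRF7 library, while Mavs, Tbk1 and Tyk2 overlap, with means of 42.9 and 41.8, 50.03 and 48.8, and 22.9 and 23.6 CPM.

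Tank, a scaffold that binds TRAF3, TBK1 and IKKε, was higher (ENSMUSG00000064289, chromosome 2 from 61578585 to 61654171). It had 41.6, 39.5, 39.1 and 38.98 CPM in GFP libraries 1 to 4 and 52.2, 54.4, 48.8 and 46.8 CPM in OEIRF7 libraries 1 to 4. All OEIRF7 libraries were above all GFP libraries, and the log2 difference reached 0.35 ± 0.051 (SE, edgeR adjusted p = 3.8e-05), or 1.27-fold. Its spread was wider under the label OEIRF7, with a coefficient of variation of 6.77% against 3.11%. The coefficient was also larger under OEIRF7 for every other member except Mavs, Jak1 and Tyk2, and these differences were not tested.

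The kinases that TANK holds are encoded by paralogs, which share most of their domain structure. Tbk1 is expressed in most cells and is the main IRF3 kinase, while Ikbke is known as the inducible member of the pair. Tbk1 (ENSMUSG00000020115, chromosome 10 from 121546455 to 121586787, minus strand) had 51.9, 50.2, 49.3 and 48.8 CPM in GFP libraries 1 to 4 and 47.8, 51.0, 49.1 and 47.4 CPM in OEIRF7 libraries 1 to 4. These values overlapped, with a log2 fold change of -0.03 and a 95% interval from -0.12 to 0.05 (adjusted p = 0.485, edgeR). Ikbke (ENSMUSG00000042349, chromosome 1 from 131254343 to 131279606, minus strand) had 14.3, 12.5, 14.7 and 15.1 CPM in GFP libraries 1 to 4 and 10.7, 11.6, 8.28 and 10.7 CPM in OEIRF7 libraries 1 to 4. Library 3 labelled OEIRF7 was the lowest with 211 counts, and all 4 OEIRF7 libraries were below all 4 GFP libraries. For Ikbke the log2 difference reached -0.45 ± 0.098 (SE, edgeR adjusted p = 0.00103), or 0.730-fold, and -0.36 (adjusted p = 0.0015, edgeR) without that library. In size this change exceeded that of 71.8% of the genes tested, the highest such share among the 10 genes.

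The promoters of the 2 kinase genes are shown because one gene was lower and the other was not past the threshold. All 10 genes were matched by symbol to 13 promoter windows. The windows come from RefSeq on GRCm38.p6, each from 250 bases before to 50 bases after the annotated start and written along the gene's own strand, with every CG pair in capitals. Ikbke lies at chr1:131279514-131279813 and Tbk1 at chr10:121586745-121587044, both on the minus strand.
Ikbke: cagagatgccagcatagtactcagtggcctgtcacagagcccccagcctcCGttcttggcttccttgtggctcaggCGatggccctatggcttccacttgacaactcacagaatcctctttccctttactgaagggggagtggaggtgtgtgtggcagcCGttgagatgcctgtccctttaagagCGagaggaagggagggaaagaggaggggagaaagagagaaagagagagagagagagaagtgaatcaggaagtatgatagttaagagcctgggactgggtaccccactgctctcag
Tbk1: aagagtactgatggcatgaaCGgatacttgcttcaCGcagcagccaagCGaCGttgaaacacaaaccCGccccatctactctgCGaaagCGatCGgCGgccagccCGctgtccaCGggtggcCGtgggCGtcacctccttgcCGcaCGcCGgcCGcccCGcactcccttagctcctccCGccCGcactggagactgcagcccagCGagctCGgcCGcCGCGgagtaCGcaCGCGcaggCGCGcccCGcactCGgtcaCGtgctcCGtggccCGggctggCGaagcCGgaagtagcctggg
The window of Ikbke holds 4 CG pairs and is 54.0% G and C, and that of Tbk1 holds 37 CG pairs and is 69.0% G and C, where the median over 32851 promoters is 7 CG pairs and 52.7%. Every other member except Tank had at least 18 CG pairs in its window. Tank has 4 annotated starts, whose windows hold 1, 3, 12 and 18 CG pairs. The link between this composition and the change of the genes was not tested.

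Both receptor chains were higher. Ifnar1, the chain that TYK2 binds (ENSMUSG00000022967, chromosome 16 from 91485238 to 91507441), had 74.6, 72.1, 72.1 and 74.0 CPM in GFP libraries 1 to 4 and 80.2, 83.3, 78.0 and 81.7 CPM in OEIRF7 libraries 1 to 4. All OEIRF7 libraries were higher, with a change of 0.14 ± 0.036 (log2, SE) and an adjusted p of 0.00315 in edgeR, or 1.10-fold. Ifnar2, the chain with the higher affinity for interferon that JAK1 binds (ENSMUSG00000022971, chromosome 16 from 91372783 to 91405589), had 46.9, 50.2, 47.5 and 48.7 CPM in GFP libraries 1 to 4 and 51.2, 55.8, 48.6 and 56.4 CPM in OEIRF7 libraries 1 to 4. Here library 3 labelled OEIRF7 lay within the range of the GFP libraries. The log2 difference reached 0.13 ± 0.051 (SE, edgeR adjusted p = 0.033), and the exact two-sided permutation test gave p = 0.0857. The call of Ifnar2 was lost in limma on FPKM and when any of 5 libraries was left out, namely GFP 1, 3 or 4 or OEIRF7 2 or 4 (log2 fold changes from 0.10 to 0.14 there, adjusted p from 0.059 to 0.106, edgeR).

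The promoters of both receptor genes are shown because they were the members whose window matched a motif searched. The motif is the core of the GAS element to which STAT dimers bind, TTCNNNGAA, which reads the same on both strands, and the match is in capitals. Ifnar1 lies at chr16:91484965-91485264 and Ifnar2 at chr16:91372533-91372832, both on the plus strand.
Ifnar1: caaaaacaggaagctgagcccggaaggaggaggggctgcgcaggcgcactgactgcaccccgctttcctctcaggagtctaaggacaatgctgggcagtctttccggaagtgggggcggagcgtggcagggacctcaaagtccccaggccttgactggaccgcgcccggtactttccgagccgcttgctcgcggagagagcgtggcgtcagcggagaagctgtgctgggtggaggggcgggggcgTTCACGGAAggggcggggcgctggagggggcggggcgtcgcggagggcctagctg
Ifnar2: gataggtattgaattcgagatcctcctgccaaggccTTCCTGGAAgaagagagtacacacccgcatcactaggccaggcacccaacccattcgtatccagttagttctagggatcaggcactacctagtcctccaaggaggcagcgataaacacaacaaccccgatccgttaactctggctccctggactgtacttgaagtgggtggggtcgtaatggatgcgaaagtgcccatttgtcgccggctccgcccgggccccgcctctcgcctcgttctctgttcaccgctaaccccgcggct
The match begins at position -5 from the annotated start of Ifnar1 and at -214 from that of Ifnar2. Of 32851 promoters, 8.30% hold such a match, and so did 2 of the 13 windows of the 10 genes. The core of the interferon-stimulated response element (GAAA, any 2 bases, then GAAA) was searched on both strands and is found in 3.44% of all promoters, and a core of the NF-κB site (GGGA, any base, then TTTCC), also searched on both strands, is found in 0.411%. None of the 13 windows held either of these exact patterns. Other forms of the 2 sites were not searched, so their absence from the windows is not shown. A match describes letters in this window and is not evidence of binding.

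Jak1, the kinase of IFNAR2 and of many other cytokine receptors (ENSMUSG00000028530, chromosome 4 from 101152367 to 101265282, minus strand), had 302, 286, 302 and 307 CPM in GFP libraries 1 to 4 and 315, 327, 325 and 308 CPM in OEIRF7 libraries 1 to 4. The groups were separated by less than 1 CPM, between GFP library 4 and OEIRF7 library 4. The log2 difference reached 0.09 ± 0.034 (SE, edgeR adjusted p = 0.031), or 1.07-fold. This call was lost when any of 6 libraries was left out, namely 1, 2 or 3 of either group (adjusted p from 0.0518 to 0.0986, edgeR), or when all genes with at least 1 count were tested (adjusted p = 0.0562, edgeR). Without GFP 1, GFP 3 or OEIRF7 2, neither Jak1 nor Ifnar2 was called, and 3 of the 10 genes were higher, and without any other single library 4 were.

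Tyk2, the kinase of IFNAR1 (ENSMUSG00000032175, chromosome 9 from 21104068 to 21131243, minus strand), had 21.8, 23.5, 22.6 and 23.9 CPM in GFP libraries 1 to 4 and 24.7, 23.99, 22.7 and 23.0 CPM in OEIRF7 libraries 1 to 4. The groups overlapped, with a log2 fold change of 0.04 and a 95% interval from -0.08 to 0.16 (adjusted p = 0.548, edgeR). An antisense gene, 1700084C06Rik, shares 554 of the 6865 exonic bases of Tyk2, and an antisense gene of Ikbke, Gm28914, shares 159 of 9018. The strand setting of the counting is not given in the sources used here, so such reads cannot be told apart. A gene on the same strand, Gm21970, shares 315 of the 3329 exonic bases of Ifnar2 and had a median of 0 counts. How reads in these shared bases were assigned was not tested, so that median does not show that the counts of Ifnar2 were unaffected.

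Members that work together were compared within each library, as log2 CPM of a gene minus that of its partner, over 5 pairs. Traf3 rose relative to Traf6 by 0.59, from 1.84 ± 0.043 (SD, n = 4) under the label GFP to 2.43 ± 0.145 under OEIRF7, with no overlap (exact two-sided permutation test, p = 0.0286, adjusted p = 0.0477 over the 5 pairs). Each of these genes alone was already apart between the groups, in opposite directions. The lack of overlap and the unadjusted p-value of this pair followed from that and add no separate support. Tank rose relative to Tbk1 by 0.38, from -0.33 ± 0.012 to 0.05 ± 0.073, and all 4 OEIRF7 libraries were higher (exact permutation test, p = 0.0286, adjusted p = 0.0477). Ikbke fell relative to Tbk1, from -1.82 ± 0.135 to -2.24 ± 0.208, a difference of -0.43 (exact permutation test, p = 0.0286, adjusted p = 0.0477). Without OEIRF7 library 3 this last difference was -0.32, and on log2(FPKM + 0.1) it was -0.37, each with p = 0.0571 in the exact permutation test.

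For the other pairs the difference on log2 CPM was within the spread. Ifnar1 minus Ifnar2 was 0.60 ± 0.060 under the label GFP and 0.61 ± 0.066 under OEIRF7 (exact permutation test, p = 0.886, adjusted p = 0.886), a difference of 0.01 that was 0.075 on log2(FPKM + 0.1) (exact permutation test, p = 0.0571). Jak1 minus Tyk2 was 3.70 ± 0.081 and 3.75 ± 0.069 (exact permutation test, p = 0.429, adjusted p = 0.536). The groups overlapped in both. That these p-values miss the threshold does not show that the ratios were equal.

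**Figure D4:**
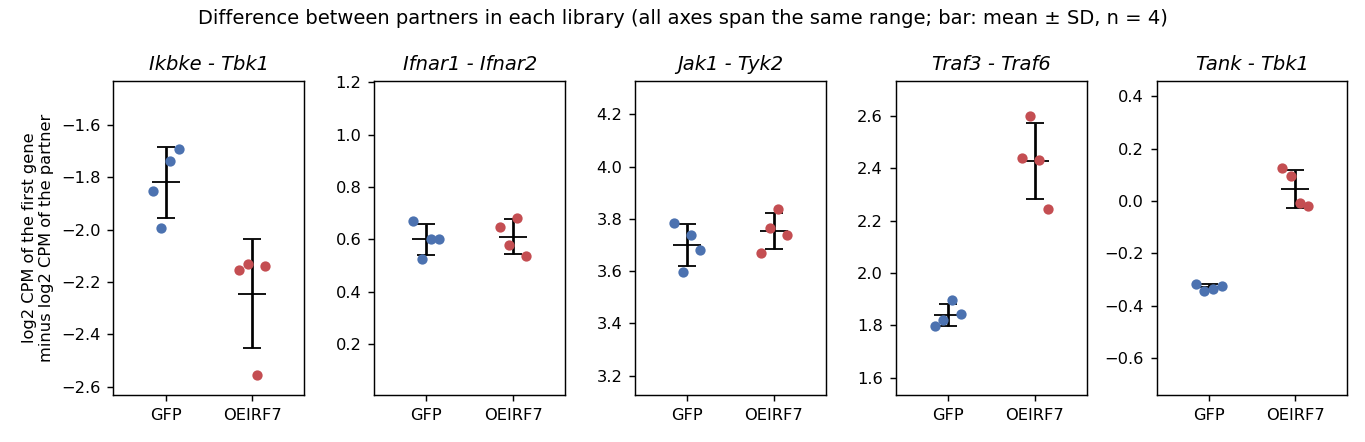
Log2 CPM of a gene minus log2 CPM of its partner in each library, for 5 pairs, with the mean ± SD in black and 4 libraries per group. Every axis covers an equal width on the log2 scale, at its own position. The groups are apart for Ikbke and Tbk1, Traf3 and Traf6, and Tank and Tbk1, with differences of -0.43, 0.59 and 0.38, and overlap for Ifnar1 and Ifnar2 and for Jak1 and Tyk2.

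Genes that act beside the 10 were followed in lists. The share to set beside every list count is that of all genes tested, 29.0% higher and 29.9% lower at the same threshold. Of 11 sensors and adaptors, 3 were higher, 1 was lower and 7 were not past the threshold (edgeR), with a median log2 fold change of 0.10. Those higher were Myd88 (0.43), the adaptor that uses TRAF6, Sting1 (0.36), the adaptor of the DNA sensor cGAS, and Ddx58 (0.31), which encodes RIG-I. Rnf135, a ubiquitin ligase of RIG-I, was lower (-0.22, adjusted p = 0.0479, edgeR), with overlapping groups. With DESeq2, 3 genes of this list passed instead of 4. Of 11 partners of TBK1 and subunits of the IKK and TAK1 complexes, 1 was higher and 5 were lower, with a median of -0.05. The higher gene was Tbkbp1, a TBK1 scaffold like TANK, which was at 4.35 ± 0.296 CPM under the label GFP and 8.80 ± 1.63 under OEIRF7 (SD, n = 4, with a log2 difference of 1.01 and an edgeR adjusted p = 7.76e-06). Among those lower were Ube2n (-0.34), the enzyme that builds lysine-63 ubiquitin chains with TRAF6, Ikbkg (-0.24), which encodes NEMO, and Tab3 (-0.22). In limma on FPKM, 3 of these 11 passed instead of 6.

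Of the 5 other TRAF genes, Traf1, Traf4 and Traf2 were higher (1.82, 0.39 and 0.30), Traf7 was lower (-0.27) and Traf5 did not pass (edgeR). Traf1 was low, with 16 to 83 counts per library. Of 12 inhibitors of the upstream arm, 4 were higher and 4 lower, with a median of 0.01. Higher were Tnfaip3 (0.70), which encodes the ubiquitin-editing enzyme A20, and its partner Tnip1 (0.66). Lower were Otub2 (-0.62), a deubiquitinase of TRAF3 and TRAF6, and Nlrx1 (-0.56), which binds MAVS.

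Among the transcription factors activated by the 10 proteins, Irf5 was higher (0.87), and Irf7 (-2.96) and Irf3 (-0.42) were lower (edgeR). Irf9 and Stat2, with log2 fold changes of -0.04 each, were not past the threshold. Of 10 type I interferon genes, 9 had no count in any library and Ifne had 1 count in all, where 3 counts correspond to 0.103 to 0.122 CPM of a library. Of 13 interferon-stimulated genes, 12 were tested, and 7 were higher and 2 lower, with a median of 0.44. Rsad2, Cmpk2, Parp14 and Rtp4 had log2 fold changes of 1.203, 0.79, 0.63 and 0.58. Ifit3 and Ifit1 were lower (-0.32 and -0.28, adjusted p = 0.023 and 0.0395, edgeR), but their groups overlapped. The genes of this list called by edgeR thus did not all share a direction. With DESeq2, 6 genes of the list were called instead of 9.

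Around the receptor, chains of other receptors that use JAK1 or TYK2 were listed beside Ifnar1 and Ifnar2. Of 13, 12 were tested, 5 were higher and 2 lower, with a median log2 fold change of 0.09. Il2rg (1.24), Il13ra1 (0.98), Il4ra (0.81) and Ifngr2 (0.62) had larger estimates than either chain of the type I receptor, a difference that was not tested. Il2rg is a chain found mostly on leukocytes, whose markers were partly higher as given above, and that share was not tested. Il11ra1 (-0.49) and Il6st (-0.15), the chains of the IL-11 receptor, were lower. Of the other Janus kinases, Jak2 was higher (0.39) and Jak3 lower (-0.40). Of 12 inhibitors of the receptor kinases and STATs, 4 were higher and 1 lower, with a median of 0.04. Cish (2.33), Socs3 (1.03) and Usp18 (0.47), which are induced by cytokine signalling and restrain it, and Ptpn11 (0.12) were higher, and Pias3 was lower (-0.26) (edgeR).

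**Figure D5:**
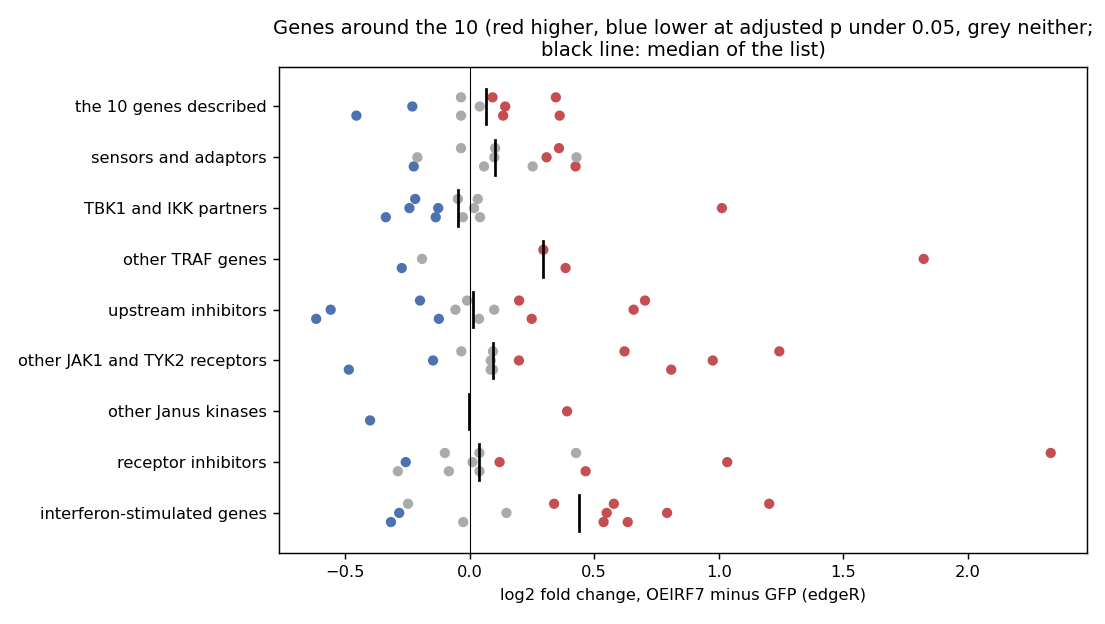
Log2 fold change (OEIRF7 minus GFP, edgeR) of every tested gene of the 10 described and of 8 lists around them, without the list of transcription factors. Red marks genes that were higher and blue genes that were lower at an adjusted p under 0.05, grey the rest, and the black line is the median of a list. The 10 genes lie between -0.45 and 0.36, while Otub2 at -0.62 and Cish at 2.33 are the outermost points plotted.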

How the data were processed

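RNA-seq libraries of 4 samples per group were analysed. Reads were trimmed with Trimmomatic and mapped to GRCm38 with HISAT2, and the authors deposited raw counts per gene from HTSeq-count and FPKM from Cufflinks, scaled to transcript length and library depth. Versions and the strand setting are not given in the sources used here, and the labels and the paper differ on the library kit. The deposited group means of FPKM, log2 ratios, p-values and FDR are the authors' own comparison and were not used. The letters nc had been replaced by GFP in gene symbols, and 118 symbols were restored by Ensembl identifier.

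Genes were kept by filterByExpr, scaled by TMM and tested with edgeR 4.0.16 (glmQLFit, glmQLFTest) in R 4.3.3, without covariates, with Benjamini-Hochberg adjustment over 13533 genes. A prior count of 2 was added for log2 CPM. Ratios of members were compared by exact permutation tests. Alternatives were DESeq2 1.42.0, limma 3.58.1 on log2(FPKM + 1) or log2(FPKM + 0.1) where the mean exceeded 0.1 FPKM, other scalings and filters, a replicate block, and leaving out each library. Scripts were tested on simulated data. Total counts were 24454801 to 28658826 per library, and each of the 10 genes had at least 211 counts in every library. Coordinates are from GENCODE M21 and promoters from RefSeq GRCm38.p6.

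The members and lists were chosen with earlier results of these data known. Named are all 10 members, Irf7, genes that overlap a member, and from each list at most the 4 largest changes past an adjusted p of 0.05. Il11ra1, Il6st, Ptpn11, Ifit1, Ifit3, genes named without passing and single cell type markers were chosen after their values were seen. Replicates were compared, and the counts of each pair differed beyond sampling noise (chi-square divided by its degrees of freedom, 2.69 to 8.67). Marker lists of endothelial, mural and epicardial cells had 4 of 7, 5 of 6 and 4 of 5 tested genes past the threshold, in both directions. Of all genes tested, 58.9% passed it. The only tested cardiomyocyte marker, Tnnt2, was lower (log2 fold change -0.54). One transcription factor gene is not reported here.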

Additional observations from a re-analysis of the deposited data

Results flagged for a closer look

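Among the 20 sets of 4 CPM values (10 genes in 2 groups), 1 held a library that stood apart from the other 3 by Dixon's criterion at 95%. Traf3 in GFP library 2 was at 89.3 CPM, where the other GFP libraries lay between 96.9 and 98.4 CPM, a gap of 0.836 of the whole range. Chance alone gives about 1 in 20 such sets. Without this library Traf3 kept its call and direction.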

How the results depend on the processing

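For 8 of the 10 genes, the direction and the side of the threshold were the same under all 16 alternatives, and no member changed direction under any of them. The exceptions were Ifnar2 and Jak1. Ifnar2 failed the threshold in limma with FPKM as log2(FPKM + 1) or log2(FPKM + 0.1), with log2 fold changes of 0.089 and 0.092 (adjusted p = 0.151 and 0.152, limma), and lay between 0.10 and 0.17 without 1 library. Jak1 was not past it at a minimum of 1 count in total (0.086) and lay between 0.069 and 0.11 without 1 library. The number of genes that were higher, 5 with all libraries, was 3 or 4 in each of the 8 fits without 1 library. The difference of Ikbke from Tbk1 was -0.37 on log2(FPKM + 0.1) and lay between -0.48 and -0.32 without 1 library. That of Ifnar1 from Ifnar2, near 0, lay between -0.015 and 0.036 without 1 library and was 0.075 on log2(FPKM + 0.1) (exact permutation p = 0.0571). Of the 10 ranks by FPKM, CPM per exonic kilobase kept 3 under the label GFP and 6 under OEIRF7. The count of TBK1 and IKK partners past the threshold was 3 in limma on either FPKM scale, and that of cardiomyocyte markers was 2 at a minimum of 1 count. The other 253 of 256 list counts stayed within 1.5 times. The causes were not tested. With the replicate number as a block, 5 genes were higher and 2 lower, and no call of the 10 changed. Correlations of same-numbered libraries lay between 0.079 and 0.14, and those of all other combinations between -0.158 and 0.048. Each of the 4 GFP libraries thus correlated best with its own number. The labels do not say whether same-numbered libraries belong together. The main fit and the permutation tests treated the libraries as unpaired, so a pairing, if there was any, is left out of their p-values. Standard errors of the 10 genes ran from 0.034 to 0.098 on the log2 scale, so the smallest detectable change differed between them.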
